A study of Mus musculus with 8 samples.

Results

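*Mlana* encodes melan-A, a small membrane protein of pigment cell organelles, and the MiT/TFE genes *Mitf*, *Tfeb*, *Tfe3* and *Tfec* encode related transcription factors. They are described here with *Pmel*, which encodes the fibril protein of melanosomes, and with *Flcn*, *Fnip1* and *Fnip2*, which encode folliculin and its partners. *Mlana* was chosen by its large difference between the groups of this study, so its values below are a description with no test. The other 8 genes were taken for what they encode. All 9 were found by symbol among 46078 gene identifiers, and all 9 passed the filter on low counts that left 14736 genes tested.

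RNA was sequenced from whole infarcts of 18-month-old wild type male C57BL/6J mice, dissected by eye 7 weeks after DH stroke (occlusion of the distal middle cerebral artery combined with hypoxia). All mice carried a stroke. The vehicle group (n = 4) received subcutaneous PBS, and the HPβCD group (n = 4, HPBCD in the labels) received 4 g/kg of hydroxypropyl-β-cyclodextrin, a sugar ring that binds cholesterol. Injections were given 3 times a week for 6 weeks from 1 week after stroke. Each library is 1 sample of its group, and libraries held 16616909 to 32933164 counts assigned to genes. Vehicle replicates 1 and 3 stood apart: the summed level of the neuron markers was 1047 and 6137 CPM (counts scaled for library size) in them, against 20.4 and 42.6 CPM in vehicle replicates 4 and 2 and 8.64 to 86.9 CPM after HPβCD. Marker sums of other brain cells were also mostly higher in vehicle, with overlap. They were 2213 to 9728 CPM against 624 to 2566 CPM for astrocytes, and 1693 to 5100 against 584 to 2414 CPM for the oligodendrocyte lineage. Vehicle replicates 2 and 4 had astrocyte sums of 2213 and 3661 CPM and oligodendrocyte lineage sums of 2567 and 3354 CPM. These differences were therefore not limited to vehicle replicates 1 and 3. How much of any difference below reflects the cells present cannot be told from bulk tissue, where fewer cells of a type and less RNA per cell look alike.

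In melanocytes, MITF drives the genes of pigment synthesis and of the melanosome, *Mlana*, *Pmel* and *Tyr* among them. In most other cells, and in macrophages in particular, MITF, TFEB and TFE3 switch on lysosomal genes through the E-box CACGTG, the core of the CLEAR element. When nutrients are plentiful, mTORC1 phosphorylates these factors at the lysosome and they stay in the cytoplasm. The folliculin complex acts on the Rag GTPases in that step. The abundance of their RNA, measured here, does not report phosphorylation or nuclear entry.

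The E-box was searched in the 250 bases before the RefSeq starts of these genes (GRCm38.p6). It is palindromic, so both strands were covered at once. *Mlana* and *Pmel* had no entry in the RefSeq promoter table. Of the 12 promoter windows of the other 7 genes, 1 held CACGTG, that of *Fnip1*, against 6.02% of all 32851 windows. Among the lysosomal and autophagy genes of the CLEAR list, 15 of 39 windows (38.5%) held it, a list that is defined in part by this element. Shown are the 120 bases before the start of *Fnip1*, of *Rragc*, whose product is the Rag GTPase that folliculin acts on, and of *Clcn7*, a lysosomal chloride transporter, with the E-box in capitals. *Rragc* and *Clcn7* were picked after their values were seen. The windows lie on the plus strand at chr11:54438059-54438178, chr4:123917313-123917432 and chr17:25133271-25133390, and none overlaps an annotated exon. A match says that the letters are present, not that a factor binds there.
Fnip1: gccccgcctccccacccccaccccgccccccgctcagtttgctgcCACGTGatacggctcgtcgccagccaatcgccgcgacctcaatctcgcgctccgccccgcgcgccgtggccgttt
Rragc: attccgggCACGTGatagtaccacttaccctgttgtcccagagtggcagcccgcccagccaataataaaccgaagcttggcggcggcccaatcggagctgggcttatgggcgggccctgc
Clcn7: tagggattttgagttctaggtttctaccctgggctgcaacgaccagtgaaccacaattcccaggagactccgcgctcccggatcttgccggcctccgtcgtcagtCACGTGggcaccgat

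*Mlana* (ENSMUSG00000024806, GRCm38 chromosome 19, 29697824 to 29708634, plus strand) was near the limit of detection in vehicle infarcts, with 18, 22, 19 and 15 counts in replicates 1 to 4. After HPβCD it had 109, 175, 153 and 131 counts. Scaled for depth, these were 1.02, 0.631, 1.15 and 0.807 CPM in vehicle and 6.26, 10.7, 8.21 and 7.27 CPM after HPβCD. The lowest HPβCD library lay above the highest vehicle library. The group means were 0.902 ± 0.229 and 8.12 ± 1.91 CPM (SD, n = 4 each), 9.0-fold apart and 3.18 apart on the log2 scale (SE 0.28). By fitted log2 fold change it ranked second of all genes tested, after *Chad* at 4.27. The vehicle values rest on few reads: the 95% Poisson interval of the lowest count, 15, ran from 8.40 to 24.7, and the highest count, 22, came from the deepest library, which had the lowest CPM. No exon of *Mlana* overlaps another annotated gene. Of the genes within 100 kb, *Ric1* differed by -0.01, *Ermp1* by 0.29, *9930021J03Rik* by -0.41 and *Ranbp6* by -0.03 on the log2 scale, and none passed the test (lowest edgeR adjusted p = 0.158). *AC120159.1*, in the same window, was not analysed here.

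*Pmel* (chromosome 10, 128704195 to 128720238, plus strand) was scarce in every library. Its counts were 9, 27, 10 and 20 in vehicle and 26, 21, 24 and 21 after HPβCD, which is 0.509, 0.775, 0.605 and 1.08 CPM against 1.49, 1.29, 1.29 and 1.17 CPM. The groups did not overlap in CPM, although the highest count was that of the deepest library, vehicle replicate 2. The log2 fold change was 0.81 (95% interval 0.13 to 1.49; edgeR adjusted p = 0.124), so *Pmel* did not pass the test. Without vehicle replicates 1 and 3 the change was 0.53 (adjusted p = 0.436). Of the exonic length of *Pmel*, 6.06% overlaps exons annotated on the opposite strand, and the strand setting of the counting is not known. *Mlana* gave 0.75 to 2.0 counts per *Pmel* count in vehicle infarcts and 4.19 to 8.33 after HPβCD, a ratio whose direction follows from the choice of *Mlana*.

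**Figure D1:**
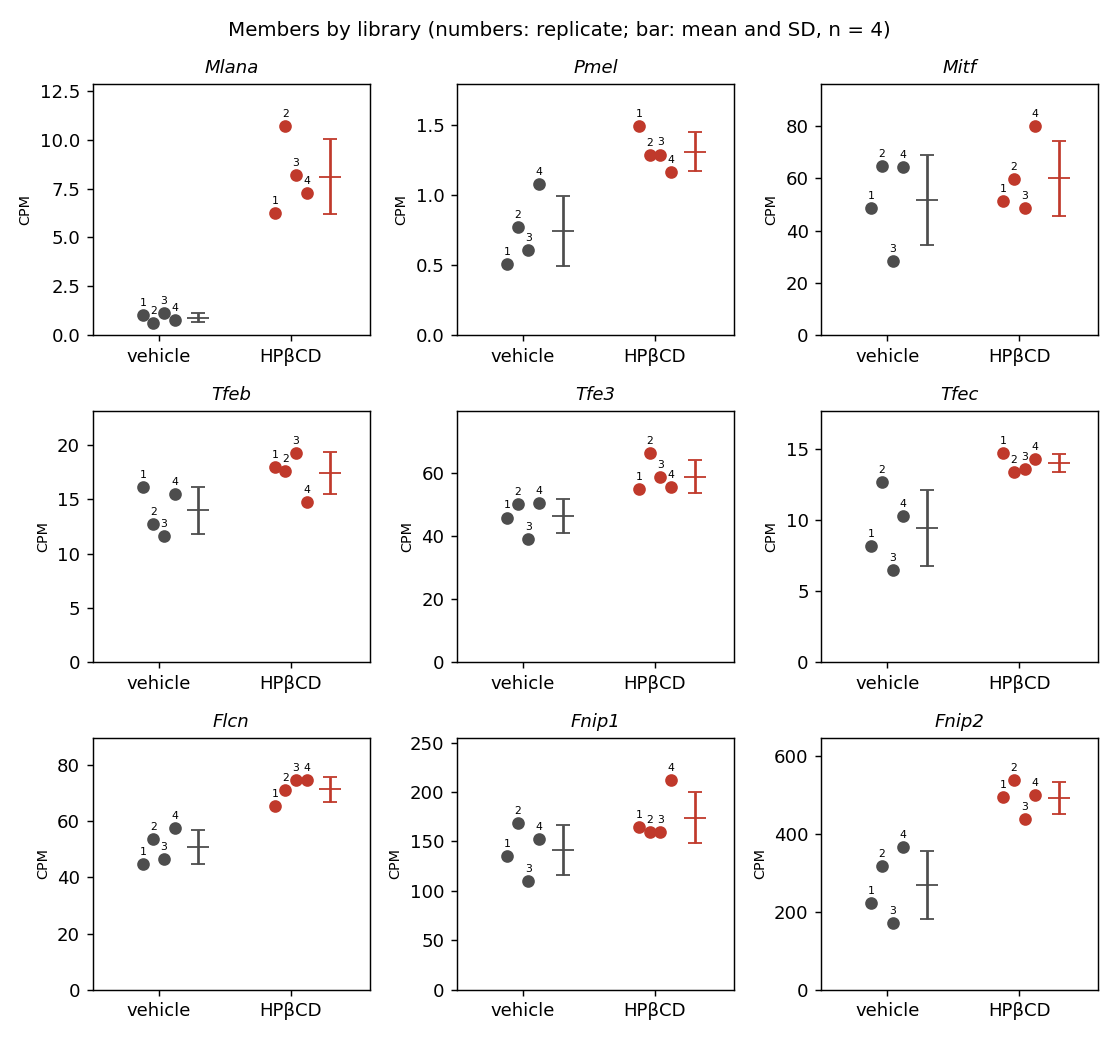
Level in CPM of the 9 genes in each library (points, numbered by replicate), with the mean and SD of each group of 4 beside them and every axis starting at 0. The HPβCD libraries lie above all vehicle libraries for *Mlana*, *Pmel*, *Tfe3*, *Tfec*, *Flcn* and *Fnip2*, and overlap them for *Mitf*, *Tfeb* and *Fnip1*.

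None of the 4 MiT/TFE factors passed the test between the groups, though each had a positive fitted change. *Mitf* (chromosome 6, 97807052 to 98021349), the melanocyte and osteoclast factor, was at 48.7, 64.8, 28.3 and 64.5 CPM in vehicle infarcts and at 51.2, 59.6, 48.8 and 80.2 CPM after HPβCD. The groups overlapped, with the lowest value in vehicle replicate 3 and the highest in HPβCD replicate 4. The log2 fold change of *Mitf* was 0.22 (95% interval -0.41 to 0.84; edgeR adjusted p = 0.657). Without vehicle replicates 1 and 3 it was -0.09, without vehicle replicate 3 alone 0.02 and without HPβCD replicate 4 alone 0.05.

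*Tfec* (chromosome 6, 16833373 to 16898441, minus strand), the member of the family found mainly in macrophages, was at 8.20, 12.7, 6.54 and 10.3 CPM in vehicle and at 14.8, 13.4, 13.6 and 14.3 CPM after HPβCD. The groups did not overlap, and the vehicle libraries were the more scattered, with vehicle replicates 3 and 1 the lowest. Its log2 fold change was 0.57 (95% interval 0.08 to 1.05; edgeR adjusted p = 0.129). Without vehicle replicates 1 and 3, the change was 0.30 (adjusted p = 0.336).

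*Tfe3* (chromosome X, 7762560 to 7775202), which shares lysosomal targets with *Tfeb*, was at 45.9, 50.0, 38.9 and 50.5 CPM in vehicle and at 54.9, 66.4, 58.6 and 55.5 CPM after HPβCD, again without overlap. The log2 fold change was 0.34 (95% interval 0.04 to 0.65; edgeR adjusted p = 0.139). *Tfeb* (chromosome 17, 47737030 to 47792419), a broad regulator of lysosome formation, was at 16.1, 12.7, 11.6 and 15.5 CPM against 18.0, 17.6, 19.3 and 14.7 CPM. HPβCD replicate 4 fell among the vehicle libraries. The log2 fold change of *Tfeb* was 0.31 (95% interval -0.06 to 0.68; edgeR adjusted p = 0.249).

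Per length, the share of each factor in the family overlapped between the groups. Of the summed RPKM (CPM divided by exonic length in kilobases) of the 4 factors, *Mitf* held 46.6% ± 6.14 in vehicle and 44.4% ± 6.42 after HPβCD (SD, n = 4 each). *Tfe3* held 29.3% ± 3.99 and 29.6% ± 3.29, and *Tfeb* 14.5% ± 2.86 and 14.4% ± 2.71. The share of *Tfec* was 9.63% ± 1.14 in vehicle and 11.7% ± 1.22 after HPβCD. The sum of the 4 factors was 17.5 ± 3.97 RPKM in vehicle and 21.6 ± 1.97 RPKM after HPβCD.

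*Flcn* and *Fnip2* had the lowest adjusted p-values of the 8 genes tested, and neither was under the threshold of 0.05 in edgeR. *Flcn* (chromosome 11, 59791408 to 59810016, minus strand), which encodes the GTPase-activating subunit, was at 44.9, 53.8, 46.5 and 57.7 CPM in vehicle and at 65.3, 71.1, 74.6 and 74.7 CPM after HPβCD. The groups did not overlap. The log2 fold change was 0.49 (95% interval 0.21 to 0.78; edgeR adjusted p = 0.0687), and DESeq2 gave *Flcn* an adjusted p of 0.0126.

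*Fnip2* (chromosome 3, 79455974 to 79567796, minus strand), a folliculin partner, was the most abundant of the 9 genes, at 223, 318, 171 and 366 CPM in vehicle and 495, 539, 440 and 500 CPM after HPβCD. All 4 HPβCD libraries were above all 4 vehicle libraries, and the vehicle libraries with the most neuron transcripts were the lowest. The log2 fold change was 0.87 (95% interval 0.33 to 1.42; edgeR adjusted p = 0.075), with an adjusted p of 0.0117 by DESeq2. Without vehicle replicates 1 and 3, the change of *Fnip2* was 0.55 (edgeR adjusted p = 0.112). *Fnip1* (chromosome 11, 54438199 to 54518235), the other partner and the one whose promoter holds the E-box, was at 135, 169, 110 and 152 CPM against 165, 160, 159 and 212 CPM. Its groups overlapped, and the log2 fold change was 0.30 (95% interval -0.09 to 0.68; edgeR adjusted p = 0.291). It was 0.13 without vehicle replicates 1 and 3, 0.20 without vehicle replicate 3 alone and 0.19 without HPβCD replicate 4 alone.

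**Figure D2:**
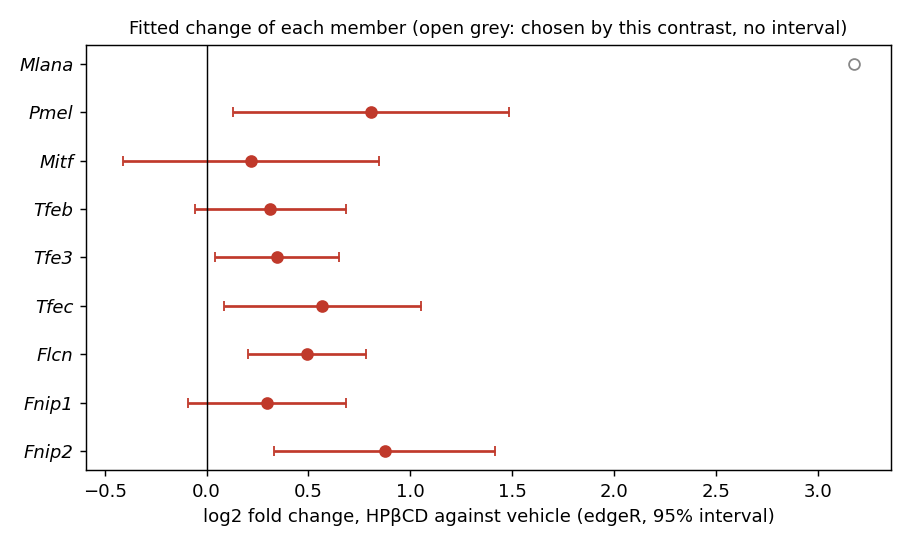
Fitted log2 fold change of each gene, HPβCD against vehicle, with the 95% interval from edgeR. *Mlana*, drawn open and without an interval because it was chosen by this contrast, is at 3.18, and the other 8 lie between 0.22 and 0.87, with intervals that reach below 0 for *Mitf*, *Tfeb* and *Fnip1*.

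Of the 8 genes other than *Mlana*, 0 passed the test in edgeR and 0 in limma-voom. Of all 14736 genes tested, edgeR called 1.17% higher and 0.774% lower, and limma-voom called 48 genes higher and 17 lower. DESeq2 called 2, *Flcn* and *Fnip2*, both higher, beside 1009 of 17041 genes called higher and 1890 lower. At an unadjusted p under 0.05 there were 5 of the 8, and 4094 of the 14736 genes tested. All 8 changes were positive, as were 6771 of all 14736, with a median of 0.42 on the log2 scale beside -0.05 over all genes tested. The HPβCD libraries lay above the vehicle libraries without overlap for 5 of the 8, a pattern found in 8.77% of all genes tested, with 8.03% in the other direction. Without vehicle replicates 1 and 3, an alternative added after the data were seen, it was again 5 of 8, beside 16.8% of all genes.

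In vehicle infarcts the mean RPKM fell in the order *Fnip2* (32.2), *Fnip1* (19.9), *Flcn* (11.7), *Mitf* (8.32), *Tfe3* (5.0), *Tfeb* (2.47), *Tfec* (1.69), *Mlana* (0.853) and *Pmel* (0.323). The ranges of neighbours overlapped for *Fnip2* and *Fnip1*, *Flcn* and *Mitf*, *Mitf* and *Tfe3*, and *Tfeb* and *Tfec*. After HPβCD, *Mlana* at 7.68 ± 1.81 RPKM stood between *Mitf* (9.68 ± 2.30) and *Tfe3* (6.35 ± 0.57), and its range overlapped both. The remaining order was the same in the HPβCD group, from 59.0 RPKM for *Fnip2* to 0.571 for *Pmel*.

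Whether *Mlana* followed a MiT/TFE factor from library to library was examined within groups, since its values form a low and a high cluster that a pooled correlation would only restate. The group mean of log2 CPM was subtracted, and the 8 deviations of each gene were correlated with those of *Mlana* by an exact permutation test over all arrangements of the libraries within groups (24 per group), two-sided. No factor had a positive r that passed the test. The r was 0.03 for *Tfeb*, -0.11 for *Tfe3*, -0.53 for *Mitf* and -0.81 for *Tfec*. *Pmel* (-0.50), *Flcn* (-0.35), *Fnip2* (-0.54) and *Fnip1* (-0.70) were also negative. Of the 8 relations only that of *Tfec* passed (exact permutation p = 0.00347, Benjamini-Hochberg adjusted p = 0.0278 over the 8 correlations). The next lowest adjusted p was that of *Fnip1*, 0.375.

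The order of *Tfec* was the exact reverse of that of *Mlana* in both groups (Spearman's rho -1.0, exact permutation p = 0.00347, adjusted p = 0.0278). In vehicle infarcts *Mlana* was highest in replicate 3, then 1, 4 and 2, and *Tfec* was lowest in replicate 3, then 1, 4 and 2. After HPβCD that sequence was replicate 2, then 3, 4 and 1 for both. Without the 2 libraries farthest from the median of *Mlana*, HPβCD replicate 2 and vehicle replicate 2, r was -0.87. Leaving out any 1 library gave r from -0.68 to -0.94, with adjusted p from 0.0556 to 0.167, so the call was lost each time. With 7 libraries there are 144 arrangements, and 0.0556 was the lowest adjusted p among them. Rank correlations of the remaining members had adjusted p from 0.25 to 0.885.

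Several measured values stand beside this inverse relation. Among the vehicle libraries, *Mlana* was highest and *Tfec* lowest in replicates 3 and 1, the libraries with the most neuron transcripts. The *Tfec* counts of the HPβCD libraries were 257, 219, 254 and 258, and their 95% Poisson intervals overlap. *Mlana* had 15 to 22 counts in the vehicle libraries. *Tfec* also shared its deviations with *Fnip2* (r = 0.86), *Fnip1* (0.82) and *Mitf* (0.80). Their part in the relation was not tested.

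**Figure D3:**
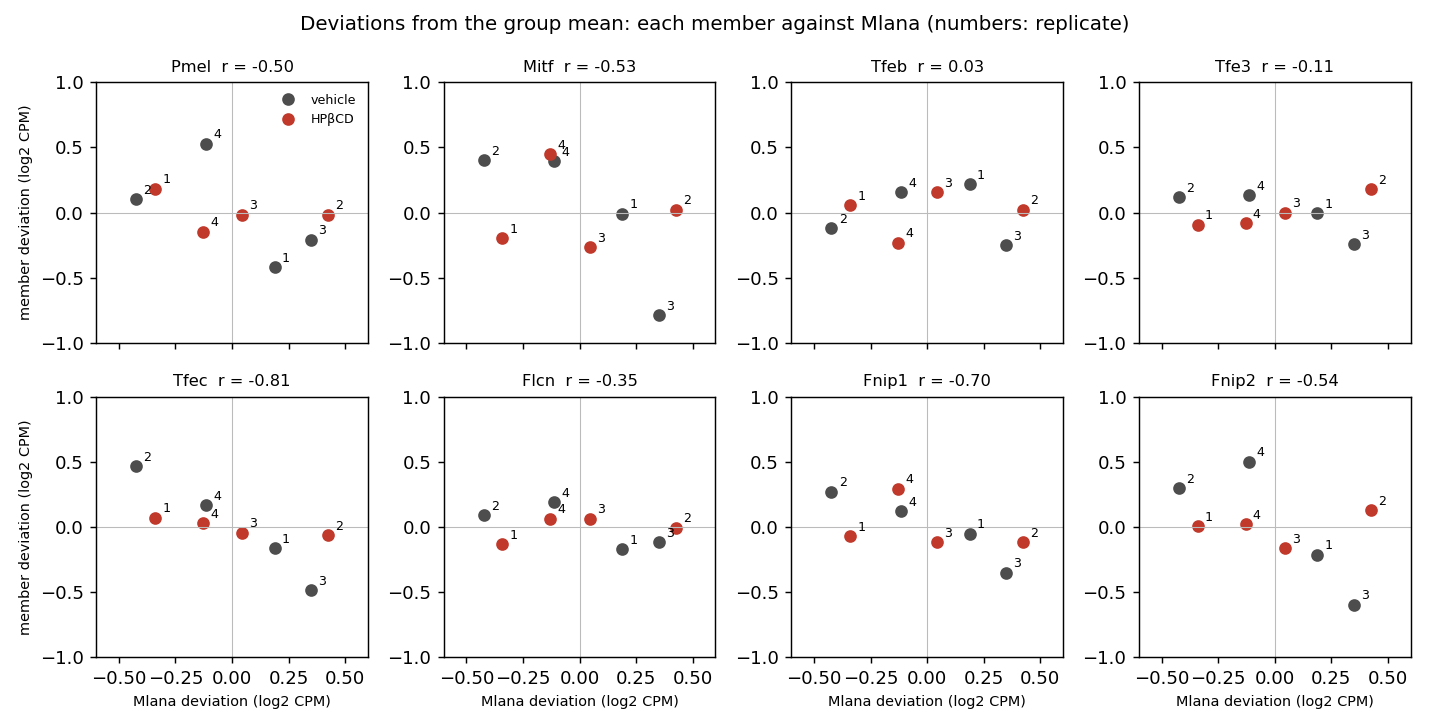
Deviation of each gene from its group mean against that of *Mlana*, both in log2 CPM, with 1 point per library numbered by replicate and Pearson's r over the 8 libraries. Within each group the points for *Tfec* fall from left to right (r = -0.81 over both groups), and those for *Tfeb* and *Tfe3* show no slope (0.03 and -0.11).

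The search covered 13980 genes whose mean level was 1 CPM or more. The deviations most like those of *Mlana* were those of *Hyi* (r = 0.95), *Rps10* (0.95), *Isoc2a* (0.95), *Pcdhga7* (0.94) and *Mpg* (0.94), over 8 libraries each. *Hyi* and *Mpg* are low, at means of 1.74 and 2.02 CPM. None is a pigment or MiT/TFE gene. The median r over all these genes was 0.00, with 19 above 0.9 and 22 below -0.9, and 99.06% had a higher r than *Tfec*.

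Transcripts that define melanocytes were absent or scarce in both groups. Of 9 melanocyte markers, *Tyr*, the rate-limiting enzyme of melanin synthesis, and *Mc1r*, the melanocortin receptor, had 0 counts in all 8 libraries. A count of 0 allows up to 3 counts, or 0.0861 to 0.184 CPM by library, counting error only. *Tyrp1* had 1 count in all, *Oca2* 4, *Slc45a2* 11, *Gpr143* 26, *Trpm1* 84, *Dct* 85 and *Slc24a5* 119. The summed level of the 9 markers was 1.61 to 3.11 CPM in vehicle and 1.84 to 2.21 CPM after HPβCD, so the groups overlapped, and neither of the 2 markers that could be tested was called. *Slc24a5*, an ion exchanger of melanosomes, differed by -0.30 (edgeR adjusted p = 0.777) and *Dct*, a melanin synthesis enzyme, by -0.62 (adjusted p = 0.545). *Pax3*, which acts upstream of *Mitf* in melanocytes, had 1 count. Mast cells, which also depend on *Mitf*, had marker sums of 4.84 to 11 CPM in vehicle and 6.22 to 7.51 CPM after HPβCD, and 0 of 4 tested mast cell markers were called by edgeR or had an unadjusted p under 0.05. Over all 14736 genes tested, 287 were called and 4094 had such a p.

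**Figure D4:**
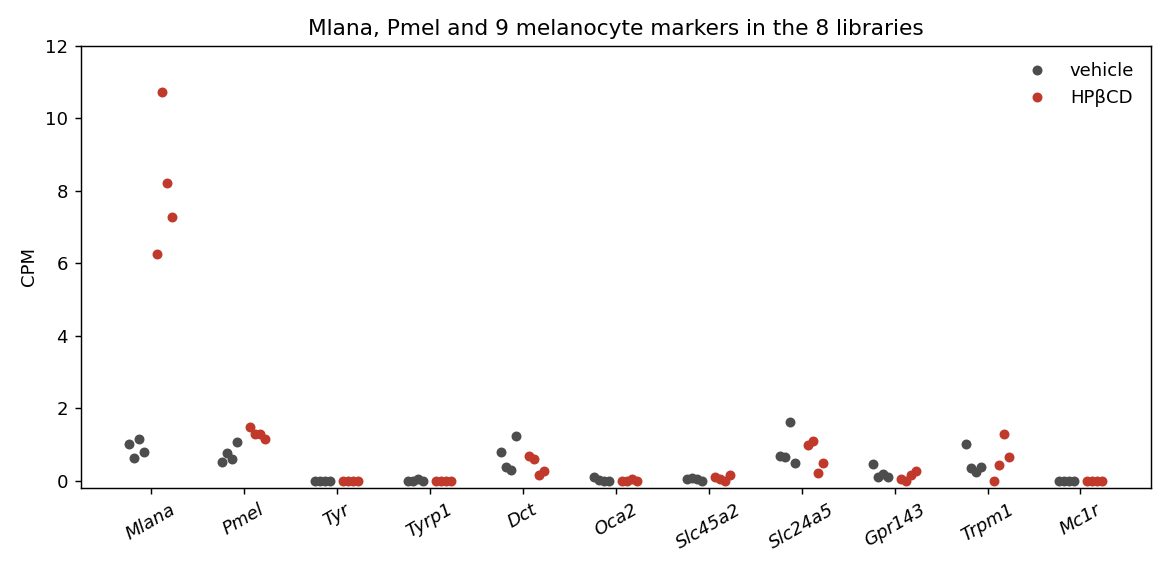
Level in CPM of *Mlana*, *Pmel* and the 9 melanocyte markers in each library, vehicle in grey and HPβCD in red. *Mlana* reaches 10.7 CPM after HPβCD, while no marker exceeds 1.63 CPM in any library and *Tyr* and *Mc1r* are at 0.

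Some melanosome genes also serve lysosome-related organelles of other cells. Of 32 melanocyte and melanosome genes, *Mlana* and *Pmel* included, 23 were tested. A positive change was fitted for 17 of them, *Mlana* included, beside 6771 of all 14736 genes tested. Apart from *Mlana*, edgeR called 2 higher, *Gpnmb* and *Hps1*, where 1.17% of all genes were. *Gpnmb*, a glycoprotein related to *Pmel* and abundant in lipid-laden macrophages, went from 4154 ± 1121 to 10800 ± 2648 CPM (SD, n = 4 each), with a fitted log2 difference of 1.38 ± 0.28 (SE) and an edgeR adjusted p of 0.0483. *Hps1*, which takes part in the making of lysosome-related organelles, went from 16.3 ± 2.40 to 29.0 ± 4.08 CPM, a fitted log2 difference of 0.83 with an edgeR adjusted p of 0.0499. Both calls lie at the threshold. With 1 library left out, *Gpnmb* lost its call in 7 of 8 fits (adjusted p from 0.0428 to 0.175) and *Hps1* in 5 of 8 (0.0369 to 0.177), among them those without vehicle replicate 1, vehicle replicate 4 or HPβCD replicates 1, 2 or 3. Without vehicle replicates 1 and 3 together their adjusted p was 0.0647 and 0.08, and limma-voom gave 0.0549 and 0.0601. *Rab27a*, which moves melanosomes to the cell edge, differed by 0.87 without passing (edgeR adjusted p = 0.0578). *Ednrb* differed by -0.97 (edgeR adjusted p = 0.07) and *Sox10* by -1.60 (0.0879), also without passing. Of the 23 tested, *Mlana* included, 7 were higher without overlap and 2 lower, *Ednrb* and *Kit*. *Mlana* is among the 7, and its place there follows from its choice. The shares of all genes tested were 8.77% and 8.03%. *Slc7a11* differed by -0.30 and *Myo5a* by 0.41, with overlapping groups.

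Upstream of the factors, 0 of 36 genes of lysosomal nutrient sensing passed the edgeR test in either direction, beside 287 of all 14736 genes tested. At an unadjusted p under 0.05 there were 5, 3 higher and 2 lower, beside 4094 of all genes. The median log2 fold change was 0.06. *Rragc* was at 202 to 274 CPM in vehicle and 342 to 390 CPM after HPβCD, without overlap (log2 fold change 0.61, edgeR adjusted p = 0.0624). *Rragd*, the other partner of this kind, overlapped (-0.18, adjusted p = 0.687). *Rragb* had a log2 fold change of -1.59 (adjusted p = 0.0624) and was lower without overlap. Its highest levels, 28.1 and 39.3 CPM, were those of vehicle replicates 1 and 3. Vehicle replicates 2 and 4, at 12.4 and 13.4 CPM, also lay above the HPβCD libraries, which reached 9.39 CPM. In this list 2 genes were higher without overlap and 2 lower, beside 8.77% and 8.03% of all genes. The most abundant gene of the list, *Lars2*, differed by -0.61 (adjusted p = 0.263). *Lamtor1*, a subunit of the Ragulator anchor, differed by 0.53 (adjusted p = 0.07). Of 19 kinases, phosphatases and carriers that act on the factors, 0 passed, and the median was -0.16. At an unadjusted p under 0.05 there were 8, 3 higher and 5 lower. Both counts stand beside the same 287 and 4094 of all genes. The abundant 14-3-3 genes *Ywhab* and *Ywhae* differed by -0.05 and -0.08. The calcineurin subunit *Ppp3ca*, a gene rich in neurons, was at 914 and 1720 CPM in vehicle replicates 1 and 3 and at 112 to 177 CPM in the other 6 libraries.

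Downstream, 41 of the 46 CLEAR genes had a positive change, beside 6771 of the 14736 genes tested, with a median of 0.56. The test called 5 higher and 0 lower, beside 1.17% and 0.774% of all genes. The 24 whose HPβCD libraries lay above all vehicle libraries can be read beside the 8.77% of all genes. *Psap*, the saposin precursor, had a log2 fold change of 1.41, *Scpep1*, a carboxypeptidase, 1.2, *Naglu*, which degrades heparan sulphate, 1.15, *Clcn7* 0.94 and *Gaa*, the lysosomal glucosidase, 0.90 (edgeR adjusted p from 0.0427 to 0.0483). *Psap* went from 4991 ± 898 to 13300 ± 3304 CPM. The proteases *Ctsd* and *Ctsb*, the other highly expressed genes of the list, differed by 0.98 and 0.85 without passing (adjusted p = 0.0774 and 0.0829). *Mcoln1*, the lysosomal calcium channel, differed by 0.64 (adjusted p = 0.068). *Ppargc1a*, a mitochondrial regulator, had a log2 fold change of -1.90 (adjusted p = 0.0624) and was the 1 CLEAR gene lower without overlap. Its highest vehicle levels, 31.5 and 54.7 CPM, were those of replicates 1 and 3. Vehicle replicates 2 and 4, at 12.2 and 17.9 CPM, also lay above the HPβCD libraries, which reached 10.05 CPM. Without those replicates 2 CLEAR genes were called. The count was 25 in DESeq2, beside 1009 of 17041 genes called higher, and 3 in limma-voom, beside 48 of 14736. The count was 0 with library totals alone and with the replicate block. It was also 0 when any of vehicle replicate 1, vehicle replicate 4 or HPβCD replicates 1, 2 or 3 was left out. The summed level of foamy macrophage markers was 6876 to 12310 CPM in vehicle and 14990 to 25050 CPM after HPβCD, and that of fibroblast and meningeal markers 7094 to 10700 and 13760 to 14940 CPM. In the first of these lists *Gpnmb* alone went from 4154 to 10800 CPM and was called. *Fabp5* differed by 1.48 and *Spp1* by 0.09 on the log2 scale without passing. *Lpl*, the only gene of that list with a negative change, differed by -0.21. In the second *Col1a1* rose by 1.61 and *Col1a2* by 1.46, while *Ptgds* differed by 0.37 and *Dcn* by 0.80 without passing. *Slc6a13*, the only gene of the second list with a negative change, was lower without overlap and did not pass (-0.84, edgeR adjusted p = 0.0502). Sums of microglia markers overlapped, at 590 to 1161 CPM in vehicle and 814 to 1246 CPM after HPβCD. Their median log2 fold change was -0.85, and 1 of 8 was called lower, *Siglech*, beside 0.774% of all genes. Sums of border macrophage markers overlapped too, at 248 to 479 and 339 to 515 CPM (median -0.0081). The part of these markers in the differences of the CLEAR genes was not tested.

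Of 12 genes that rise when folliculin is lost, 9 had a positive change here, and the median was 0.39. The test called 1 higher, *Gpnmb*, beside 1.17% of all genes. Without overlap 5 were higher and 1 lower, beside 8.77% and 8.03% of all genes. That list holds *Flcn*, *Fnip1* and *Fnip2* themselves. Of 12 targets of *Mitf* and *Tfe3* in macrophages and osteoclasts, 10 were tested and 7 had a positive change, with a median of 0.49. Of these, 1 was called higher, *Clcn7*, again beside 1.17%. *Clcn7* lost its call in 5 of the 8 fits with 1 library left out (edgeR adjusted p from 0.0263 to 0.175), those without vehicle replicate 1, vehicle replicate 4 or HPβCD replicates 1, 2 or 3. *Atp6v0d2*, a proton pump subunit of those cells and the most abundant gene of that list, differed by 1.31 with no overlap (edgeR adjusted p = 0.0516), and the macrophage receptor gene *Csf1r* by 0.13 (adjusted p = 0.717). Of 10 mast cell targets of *Mitf*, 5 were tested and 0 called, and 0 of the 5 had an unadjusted p under 0.05. The counts over all 14736 genes tested were 287 and 4094. *Kit*, the most abundant of them, was at 33.9 to 41.0 CPM in vehicle and 27.0 to 33.8 CPM after HPβCD. It was lower without overlap (log2 fold change -0.29, edgeR adjusted p = 0.193). *Cpa3* and *Hdc*, mast cell protease and histamine genes that lead the marker list too, differed by -0.17 and -0.0017, and the marker *Cma1* by 0.04.

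**Figure D5:**
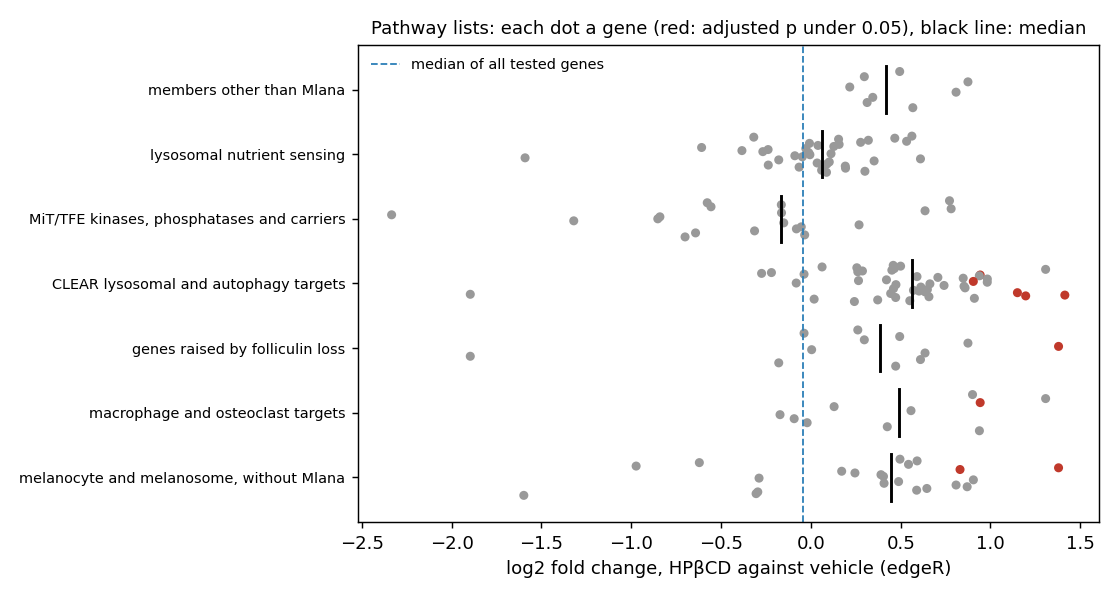
Log2 fold change of every tested gene other than *Mlana* in 7 lists, with genes called by edgeR in red. A black line marks the median of each list, and a dashed line that of all genes tested. The CLEAR list has its median at 0.56 and the nutrient sensing list at 0.06, and the genes in red are few or absent in each list.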

How the data were processed

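Bulk RNA-seq gene counts from 8 infarcts (4 per group) were used. The authors made stranded libraries of polyadenylated RNA, trimmed reads with Trimmomatic 0.32, aligned them to GRCm38 with STAR 2.5.2b and deposited raw HTSeq counts per gene and library, with the strand setting and annotation release not given in the sources used here. Counts in no gene (26.6% to 36.6%) were left out. Identifiers were matched to symbols (45143 of 46078) and positions taken from GENCODE M21. Genes were filtered with filterByExpr and tested with edgeR 4.0.16 (quasi-likelihood, TMM factors, HPβCD against vehicle, all 8 libraries, Benjamini-Hochberg adjustment, threshold 0.05). DESeq2 1.42.0 and limma 3.58.1 were alternatives. Log2 CPM used a prior count of 2. RPKM used the exonic length. The fit was checked on simulated counts with changes of 2-fold and 4-fold. There edgeR recovered most 4-fold changes but no 2-fold change, and DESeq2 recovered some 2-fold changes with many false calls. The members other than *Mlana* differed by 0.22 to 0.87 on the log2 scale, which is less than 2-fold and was not simulated. A count of 0 calls among those members therefore does not show that they did not change. The study's methods speak of data per individual mouse, while the labels tie no library to a named animal, so p-values measure the spread between samples. The closest pair of libraries differed by far more than counting noise (chi-square 18.9 per degree of freedom). Intervals of counts are exact Poisson and cover counting error only.

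The members, the gene lists and the tests were chosen with earlier results of these data known. Named genes are all members, the genes within 100 kb of *Mlana*, the 5 most like it and the melanocyte markers. In each list described gene by gene they are also the 3 most abundant and the 3 called genes of lowest p. *Rragb*, *Lamtor1*, *Mcoln1*, *Ppargc1a*, *Rab27a*, *Ednrb*, *Sox10*, *Lpl*, *Slc6a13*, *Siglech*, *Gaa*, *Pax3* and *Chad* fall outside that rule and were chosen after their values were seen.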

Additional observations from a re-analysis of the deposited data

Results flagged for a closer look

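*Fnip1* in HPβCD replicate 4, at 7.73 on the log2 CPM scale, stood far from the rest of its group, where the nearest value was 7.36 and the lowest 7.32. The gap was 0.885 of the group's range by Dixon's criterion. Of 26 groups of 4 examined, 1 gave such a value, and chance gives about 1.3.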

How the results depend on the processing

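The count of all genes called was 287, and 300 with RLE factors and 296 without the filter. It was 2899 with DESeq2, 65 with limma-voom, 11 with library totals alone, and 0 to 629 with 1 library left out: 0 without vehicle replicate 1, vehicle replicate 4, HPβCD replicate 2 or HPβCD replicate 3, 4 without HPβCD replicate 1, 556 without vehicle replicate 2 and 629 without vehicle replicate 3. With the replicate number as a block 9 genes were called. Deviations of samples of the same number had r from -0.257 to 0.329, and those of different numbers from -0.386 to 0.346. The labels do not say whether the numbers pair the samples, and these few values cannot decide it. The block left the members other than *Mlana* at 0 calls. Those members had 0 calls under every alternative but DESeq2, which gave 2. The number of members related to *Mlana* within groups, inversely in the case of *Tfec*, was 1, and 0 whenever 1 library was left out (lowest 0, highest 0). All log2 fold changes of the members kept their sign under every alternative except *Mitf* without vehicle replicates 1 and 3 (-0.0939). *Mlana* ranged from 3.02 to 3.52. The r of *Mlana* with *Tfeb* turned to -0.0129 with RLE factors and ranged from -0.18 to 0.48 with 1 library left out, and that with *Tfe3* from -0.66 to 0.47. The cause of these shifts was not tested, except that 7 libraries give too few arrangements for 1 relation alone among 8 to reach an adjusted p under 0.05. *Mlana* and *Pmel* rest on at most 27 counts in a vehicle library, which limits their within-group relations. The alternatives for the CLEAR list were added after the data were seen.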
